A study of Mus musculus with 4 samples.

Results

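The transcripts of 10 genes of the ATF4 stress response and of serine synthesis were followed in brown preadipocytes before and during the first days of adipogenesis, with and without MLL4. They are Atf4, Atf5, Ddit3, Trib3, Chac1, Asns, Sesn2, Psat1, Phgdh and Shmt2, a set defined by gene name. Each gene was found among the 22463 gene symbols of the deposited tables, and a gene with several transcripts is represented by the one that gathered most reads in all. All 10 were among the 11541 expressed genes, those with an RPKM (reads per kilobase of exon, scaled to library depth) above 1 in either Ad-GFP library.

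The cells were immortalized brown preadipocytes from E18.5 embryos on a C57BL/6J background, MLL3-/-;MLL4flox/flox, made to grow on with SV40T. Infection with adenoviral GFP (Ad-GFP) left them MLL3-/-, which the labels also call WT, and infection with adenoviral Cre (Ad-Cre) made them MLL3-/-;MLL4-/-. All cells therefore lacked MLL3, a close relative of MLL4, so the Ad-GFP cells are not wild type and the comparison shows the loss of MLL4 on that background. RNA was taken at day 0, when cells had been confluent for 2 days, and at day 2, after 2 days in an adipogenic cocktail of insulin, T3, indomethacin, dexamethasone and IBMX. Each of the 4 conditions has 1 library, so differences have no replicate check and no p-value is printed. Values of a gene in the 4 libraries are listed as Ad-GFP day 0, Ad-GFP day 2, Ad-Cre day 0 and Ad-Cre day 2. The intervals are 95% intervals that cover counting error only, and they compare libraries, not conditions. The text calls a gene past the cutoff when its RPKM differed more than 2.5-fold.

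ATF4 is a transcription factor whose mRNA is translated more when kinases phosphorylate the initiation factor eIF2 under amino acid shortage, endoplasmic reticulum stress or other stresses. With C/EBP family partners it binds composite C/EBP-ATF elements and activates genes for amino acid synthesis and uptake, for the charging of tRNA and for stress control. MLL4 is a histone H3K4 mono- and di-methyltransferase of enhancers. The mRNA levels given here do not measure ATF4 protein.

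The C/EBP-ATF element has the core TGATGNAA, which was searched on both strands of the 300-base RefSeq promoters, from 250 bases before to 50 after each start. It was found in 3.97% of 32851 promoters, which belong to 27025 genes, of which 4.51% held it. Among the 10 genes, 3 held it in this window. All 3 are shown 5′ to 3′ on the strand of the gene, with the match in capitals. The 10 genes were chosen as genes of the ATF4 response and of serine synthesis, so this count describes the set.
Asns, chr6:7643214-7643243, minus strand: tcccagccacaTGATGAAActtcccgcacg
Chac1, chr2:119176728-119176824, plus strand: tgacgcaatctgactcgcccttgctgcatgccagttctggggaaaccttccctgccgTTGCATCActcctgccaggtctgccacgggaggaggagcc
Trib3, chr2:152169764-152169793, minus strand: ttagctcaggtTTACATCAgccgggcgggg
Coordinates are those of NCBI37/mm9, where each stretch was placed by an exact match. The core lies on the strand of the gene in Asns, 23 bases before its RefSeq start. On the other strand it lies in Chac1, 193 bases before the RefSeq start, and in Trib3, at base 15 after it. RefSeq and GENCODE vM1 place the starts of these genes differently. The Asns core lies inside the GENCODE span of the gene given below, and the Trib3 core lies before the start of its span. A match of letters is not a measured binding site, and the windows of the other 7 genes, which include Psat1, hold no match.

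The genes lie on 8 mouse chromosomes, with Ddit3 and Shmt2 both on chr10 (126727830-126733344 and 126954195-126959491) and Trib3 and Chac1 both on chr2 (152163158-152169768 and 119176965-119180117). Atf4 spans chr15:80085614-80087970, Atf5 chr7:52067627-52072028, Asns chr6:7625169-7643254, Sesn2 chr4:132047947-132066416, Phgdh chr3:98117093-98143913 and Psat1 chr19:15979168-16021827 in GENCODE vM1 on NCBI37/mm9. The counting is not stated to use strand, so reads where genes overlap cannot be assigned with certainty. Exons of other genes covered 4.12% of the exonic bases of Atf5 and 4.73% of those of Ddit3, which meets Mars, and the share was 0.614% in Shmt2 and 0 in the other 7. Near-identical copies are a larger matter for Phgdh. Of its 50-base windows, 95.7% matched elsewhere in the genome with at most 2 mismatches, so its count is uncertain. That share was 12.1% for Psat1, 11.2% for Shmt2 and 0 for the other genes.

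Of the series as a whole, the libraries held between 15831915 and 22099995 reads counted on transcripts. Kmt2d, which encodes MLL4, had an RPKM of 18.5, 18.7, 16.3 and 15.6. These values cover the whole transcript, most of which lies outside the deleted exons, and so do not check the deletion. The 8 expressed fat cell markers of 9 listed (Ucp1 had at most 1 read) had, with Ucp1, a summed RPKM of 31.6, 2107, 17.3 and 514. The summed RPKM of 8 preadipocyte and mesenchymal markers was 3263, 645, 2929 and 1116, a sum carried by Col1a1, Vim and Col3a1. Some single markers were already past the cutoff lower with Ad-Cre at day 0. Dlk1 was 13.9-fold lower (141 RPKM with Ad-GFP and 10.1 with Ad-Cre), Pdgfra 7.57-fold (73.6 and 9.72) and the fat cell factor Pparg 3.31-fold (3.29 and 0.994). Other markers went the other way. Of the 8 expressed fat cell markers 4 were higher and 4 lower with Ad-Cre at day 0, and of the 8 mesenchymal markers 3 and 5. Of all expressed genes, 4.12% were past the cutoff lower at day 0 and 1.27% higher. The leukocyte markers Ptprc and Adgre1 and the epithelial markers Cdh1 and Krt8 had no reads, and the summed RPKM was at most 2.58 for leukocyte, 0.345 for endothelial and 0.158 for epithelial markers. The summed skeletal muscle markers had 18.9, 0.520, 48.5 and 4.74 RPKM, of which Acta1 made 18.4, 0.364, 48.5 and 3.41, while Myog had no reads.

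During adipogenesis of Ad-GFP cells, 5 of the 10 genes passed the cutoff upward, and none downward. They were the stress factor Ddit3, the pseudokinase Trib3, the glutathione-degrading enzyme Chac1, the asparagine synthetase Asns and the stress-induced Sesn2. Of all expressed genes, 8.38% passed the cutoff upward and 12.7% downward. On the log2 scale the median change over the 2 days was 1.23 for the 10 genes and 0.15 for all expressed genes. In Ad-Cre cells none of the 10 passed the cutoff in either direction, with a median of −0.09 against −0.01 for all expressed genes, of which 8.68% passed upward and 10.0% downward. At day 0 none differed past the cutoff between the genotypes, with all-gene shares of 1.27% higher and 4.12% lower. At day 2, Trib3, Chac1, Asns and Psat1 were past the cutoff lower in Ad-Cre cells, and the all-gene shares were 8.16% higher and 10.1% lower. The median ratio at day 2 was −1.07 on the log2 scale over the 10 genes and −0.16 over all expressed genes. The Ad-GFP day 2 library enters both the Ad-GFP induction and the day 2 comparison, so these counts are not independent.

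**Figure D1:**
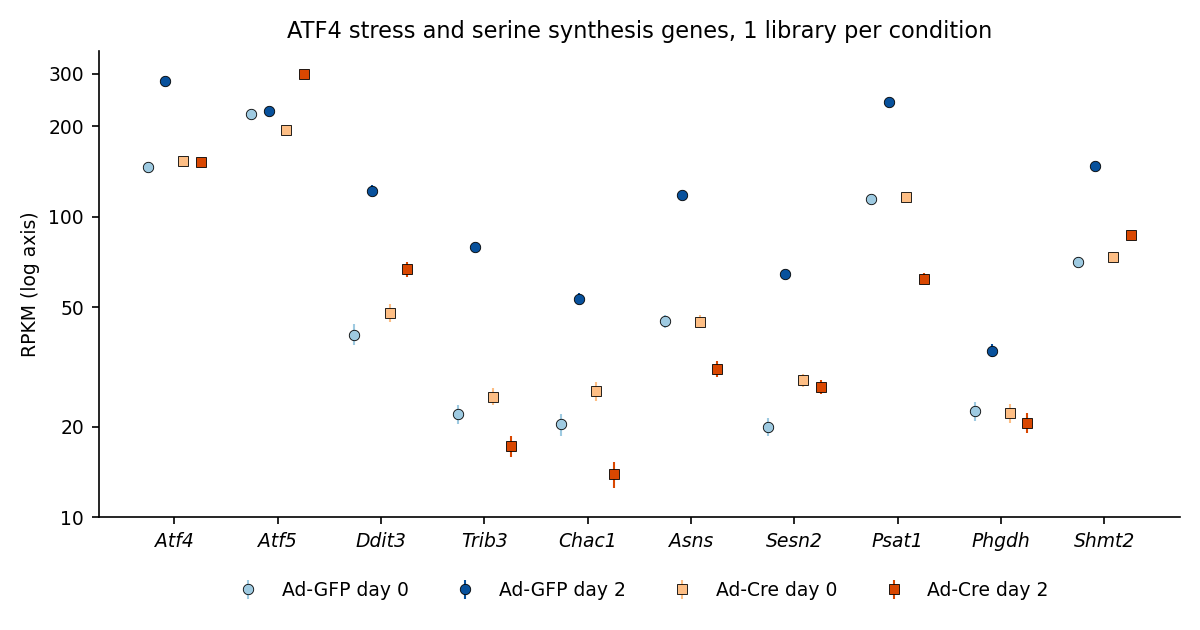
RPKM on a log axis of the 10 genes in the 4 libraries (circles, Ad-GFP; squares, Ad-Cre; light, day 0; dark, day 2), with bars for the 95% counting interval. In 9 of 10 genes the Ad-GFP day 2 library is the highest, and in Atf5 the Ad-Cre day 2 library is, at 299.

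Scaling bears on these counts. With TMM factors, which centre on genes of moderate change, the median of all genes moved from 0.15 to 0.05 for the Ad-GFP induction and from −0.16 to 0.02 for the day 2 comparison. Asns and Chac1 then dropped below the cutoff in the Ad-GFP induction, leaving 3 genes, while the 4 lower at day 2 were the same genes. The all-gene split at day 2 became 10.5% higher and 7.08% lower.

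The transcription factors of the response differed among themselves. Atf4 had 4358, 11206, 5167 and 4721 reads, which gave an RPKM of 146.9, 282.6, 153.5 and 151.8. The Ad-GFP day 2 library was thus apart from the other 3, which lay between 146.9 and 153.5. Atf4 was 1.92-fold higher at day 2 than at day 0 in Ad-GFP cells (log2 0.94, interval 0.89 to 0.99) and had a log2 ratio of −0.02 in Ad-Cre cells (−0.07 to 0.04). At day 2 it was 1.86-fold lower in Ad-Cre cells, short of the cutoff.

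Ddit3 encodes CHOP, a C/EBP family protein known for its part in cell death under lasting stress and for dimers that block C/EBP factors. It had 607, 2449, 815 and 1050 reads. The RPKM was 40.5, 122.3, 48.0 and 66.9. The Ad-GFP day 2 value was again the highest, and the Ad-Cre day 2 value lay above both day 0 values. The induction was 3.02-fold in Ad-GFP cells (log2 1.59, interval 1.47 to 1.72) and 1.39-fold in Ad-Cre cells (log2 0.48, 0.35 to 0.61). At day 2 it was 1.83-fold lower in Ad-Cre cells. With the trends of ratio with transcript length and GC content removed, the Ad-Cre induction was −0.57 on the log2 scale, and it was −0.23 with the length trend alone removed, so its direction turned. The ratio at day 2 was then, with both removed, −1.63 on the log2 scale, past the cutoff.

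Atf5, a relative of ATF4 that is also translated under eIF2 phosphorylation, had a different pattern from the other 9 genes. Its reads were 6879, 9403, 6884 and 9776, with an RPKM of 220.3, 225.3, 194.3 and 298.5. The 2 Ad-GFP values were near each other, and the Ad-Cre day 2 value was the highest. The day 2 to day 0 log2 ratio was 0.03 (interval −0.01 to 0.08) in Ad-GFP cells and 0.62 (0.58 to 0.66) in Ad-Cre cells, and the log2 ratio between the day 2 libraries, Ad-Cre over Ad-GFP, was 0.41 (0.37 to 0.45). With length and GC trends removed this last ratio was −0.44, and with TMM factors the ratio of the Ad-GFP induction was −0.07, so the direction for Atf5 rests on the processing. The transcript used is listed as non-coding, and the coding transcript of Atf5 had 5907, 8488, 6089 and 8926 reads.

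The 3 stress effectors downstream of these factors had their one high value in the Ad-GFP day 2 library. Trib3, a pseudokinase that restrains ATF4 and CHOP activity in a feedback loop, had 776, 3732, 1010 and 637 reads. The RPKM was 22.0, 79.2, 25.2 and 17.2. The Ad-GFP day 2 library was high, and the Ad-Cre day 2 library was the lowest. Its induction in Ad-GFP cells, 3.60-fold (log2 1.85, interval 1.74 to 1.96), was the largest of the 10 genes. In Ad-Cre cells the log2 ratio was −0.55 (−0.70 to −0.41), and at day 2 Trib3 was 4.60-fold lower with Ad-Cre than with Ad-GFP (log2 −2.20, −2.32 to −2.08).

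Chac1, which breaks down glutathione, had 550, 1928, 804 and 393 reads and an RPKM of 20.4, 53.5, 26.3 and 13.9. The order of the libraries was that of Trib3. It was 2.62-fold higher at day 2 in Ad-GFP cells (log2 1.39, interval 1.25 to 1.53), just past the cutoff, and 1.89-fold lower at day 2 than at day 0 in Ad-Cre cells (log2 −0.92, −1.10 to −0.74). At day 2 it was 3.85-fold lower in Ad-Cre cells (log2 −1.94, −2.10 to −1.79). With length and GC trends removed the Ad-Cre change became −1.60 on the log2 scale, past the cutoff.

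Sesn2, a sestrin that restrains mTORC1 and senses leucine, had 913, 3941, 1479 and 1303 reads, and an RPKM of 19.99, 64.6, 28.6 and 27.2. Unlike Trib3 and Chac1, its Ad-Cre day 2 value lay near the Ad-Cre day 0 value. The induction was 3.23-fold in Ad-GFP cells (log2 1.69, interval 1.59 to 1.80), and the log2 ratio was −0.07 (−0.18 to 0.04) in Ad-Cre cells. Already at day 0 it was 1.43-fold higher in Ad-Cre cells, the widest day 0 difference of the 10 genes. At day 2 it was 2.37-fold lower in Ad-Cre cells, just short of the cutoff, and with length and GC trends removed the log2 ratio of −1.69 passed it.

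Among the biosynthetic enzymes, Asns and Psat1 were the furthest apart between the day 2 libraries. Asns, which makes asparagine from aspartate and glutamine, had 1488, 5237, 1685 and 1085 reads. Its RPKM was 44.9, 118.2, 44.8 and 31.2. The 2 day 0 values were within counting error of each other (log2 0.00, interval −0.10 to 0.10). The induction was 2.63-fold in Ad-GFP cells (log2 1.40, 1.31 to 1.48), just past the cutoff, against a log2 ratio of −0.52 (−0.63 to −0.41) in Ad-Cre cells. At day 2 Asns was 3.79-fold lower in Ad-Cre cells (log2 −1.92, −2.02 to −1.83).

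Phgdh, Psat1 and Shmt2 encode enzymes of serine synthesis and of the step that passes the carbon of serine to folate in mitochondria. Psat1, the aminotransferase of the pathway, had 4285, 12032, 4918 and 2441 reads and an RPKM of 114.7, 241.0, 116.0 and 62.3. It was 2.10-fold higher at day 2 in Ad-GFP cells, below the cutoff, and 1.86-fold lower at day 2 in Ad-Cre cells. Both changes together set the libraries 3.87-fold apart at day 2 (log2 −1.95, interval −2.01 to −1.89).

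Phgdh, the first enzyme of the pathway, had the lowest RPKM of the 10 genes in the Ad-GFP day 2 library. Its count is uncertain because of near-identical copies, so its level and ratios are too. It had 726, 1544, 810 and 697 reads and an RPKM of 22.6, 35.9, 22.2 and 20.7. The induction was 1.59-fold in Ad-GFP cells (log2 0.67, interval 0.54 to 0.80) and the log2 ratio −0.10 (−0.25 to 0.04) in Ad-Cre cells. Shmt2, the mitochondrial serine hydroxymethyltransferase, had 2808, 7838, 3317 and 3616 reads and an RPKM of 70.8, 147.9, 73.8 and 87.0. It was 2.09-fold higher at day 2 in Ad-GFP cells (log2 1.06, 1.00 to 1.13) and 1.18-fold higher in Ad-Cre cells (log2 0.24, 0.17 to 0.31), though −0.18 on the log2 scale with length and GC trends removed. Ad-Cre over Ad-GFP at day 2, the log2 ratio was −0.80 for Phgdh and −0.77 for Shmt2. Psat1, at −1.95, was thus further apart between the libraries than Shmt2. Psph, another enzyme of serine synthesis, was at −1.16.

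**Figure D2:**
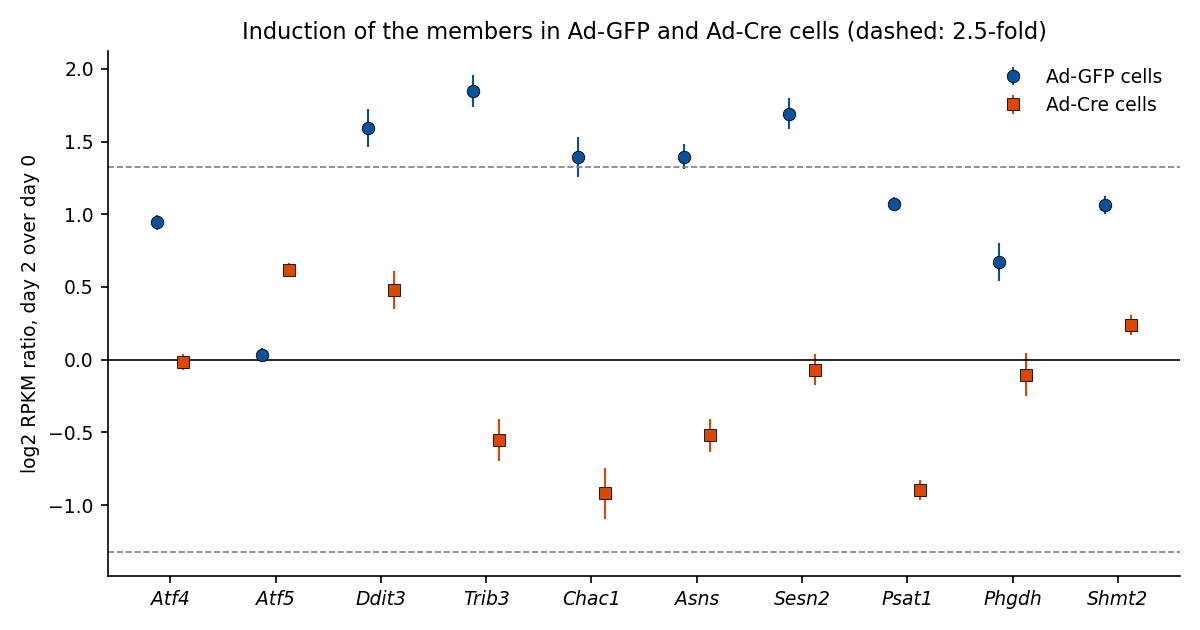
Log2 ratio of RPKM at day 2 to day 0 for each gene in Ad-GFP (circles) and Ad-Cre cells (squares), with bars for the 95% counting interval and dashed lines at 2.5-fold. The circles lie above the squares for every gene but Atf5, whose values are 0.03 and 0.62.

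The change over the 2 days itself differed between the cells. The log2 difference of inductions, Ad-Cre minus Ad-GFP, was past the cutoff for 5 genes, at −2.40 for Trib3 (interval −2.58 to −2.22), −2.31 for Chac1 (−2.53 to −2.09), −1.97 for Psat1 (−2.05 to −1.88), −1.92 for Asns (−2.06 to −1.78) and −1.76 for Sesn2 (−1.91 to −1.61). It was −1.11 for Ddit3, −0.96 for Atf4, −0.82 for Shmt2 and −0.77 for Phgdh, and 0.59 for Atf5. The median was −1.44 over the 10 genes and −0.11 over all expressed genes, of which 11.1% were past the cutoff lower and 11.3% higher. With TMM factors the all-gene shares became 8.59% lower and 13.5% higher, and the same 5 genes passed. With the length trend removed, and with length and GC trends removed, Ddit3 passed as well, at −2.16 in the latter, where 5.66% of all genes were past the cutoff lower.

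**Figure D3:**
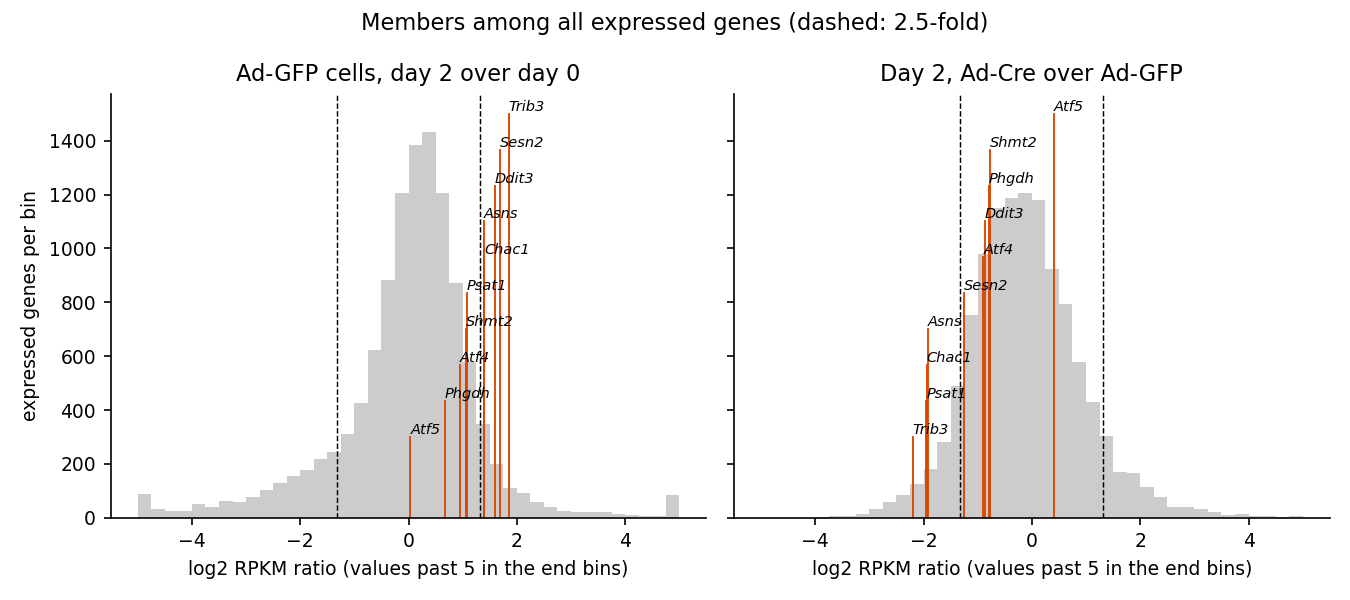
Histograms of the log2 RPKM ratio of all expressed genes (bins of 0.25; ratios past 5 in the end bins), at day 2 over day 0 in Ad-GFP cells on the left and Ad-Cre over Ad-GFP at day 2 on the right, with the 10 genes as vertical lines and 2.5-fold as dashed lines. On the left 5 lines lie beyond the right dashed line, and on the right 4 lie beyond the left one; the height of a line has no meaning.

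In level, the 10 genes ranged widely. Per length of transcript, Atf4, Atf5, Psat1 and Shmt2 were the 4 most abundant in Ad-GFP cells at both days. In the Ad-GFP day 2 library Atf4 stood at the 99.5th percentile of expressed genes and Phgdh, with its uncertain count, at the 86.5th. Chac1 moved from the 92.2nd percentile there to the 64.0th in the Ad-Cre day 2 library. At day 0 in Ad-GFP cells the counting intervals of Trib3, Chac1, Sesn2 and Phgdh, at 22.0, 20.4, 19.99 and 22.6 RPKM, overlapped at least one neighbour each, so their order there is not resolved.

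The wider pathway was described with lists of genes of known roles, and with the same cutoff. The shares of all expressed genes past it are those given above, 8.38% upward and 12.7% downward in the Ad-GFP induction and 10.1% lower at day 2. Of 13 expressed serine and one-carbon enzymes outside the 10 genes, 4 passed the cutoff upward and 1 downward in the Ad-GFP induction, and 4 were past it lower in Ad-Cre cells at day 2. The medians were 0.99 and −1.16 on the log2 scale. Cth, which makes cysteine from cystathionine, had an RPKM of 3.55, 43.9, 6.43 and 8.22, a log2 ratio of −2.42 at day 2. Mthfd2, a mitochondrial folate enzyme that works next to Shmt2, had 40.4, 194.5, 52.0 and 64.7 RPKM, and was −1.59 on the same scale. Gpt2, an alanine aminotransferase, was at −2.06 and Aldh1l2, a mitochondrial folate dehydrogenase, at −1.70. Shmt1, the cytosolic relative of Shmt2, was 1.91 on the log2 scale in the Ad-GFP induction and −1.02 at day 2. Going another way, Mthfd1l had a log2 ratio of −1.68 in the Ad-GFP induction and −1.74 in the Ad-Cre induction, with 0.09 between the cells at day 2. Cbs, the enzyme before Cth, was at 1.06 RPKM in the Ad-GFP and 2.57 in the Ad-Cre library of day 2, from 59 and 112 reads.

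Amino acid carriers had the lowest median at day 2 of the 7 pathway lists, −1.49 over 10 genes (with length and GC trends removed it was −1.20, and the 12 other ATF4 targets were lower at −1.31), with 5 past the cutoff lower and all 10 below 0. Their median in the Ad-GFP induction was 0.82, with 4 past the cutoff upward. Slc1a5, a glutamine carrier, had 25.7, 437.0, 35.1 and 105.7 RPKM. It passed the cutoff upward in both inductions, at 4.09 and 1.59 on the log2 scale, and was −2.05 at day 2. Slc7a5, the light chain of the leucine carrier, had 83.7, 216.6, 130.0 and 54.8 RPKM, and its partner Slc3a2 51.1, 142.1, 74.5 and 66.1. The cationic amino acid carriers Slc7a1 and Slc7a3 were at −2.07 and −1.72 at day 2, and the cystine carrier Slc7a11 at −2.41 from 291 and 43 reads. The glutamine carriers Slc38a2 and Slc38a1 lay nearest to 0, at −0.57 and −0.69. In Ad-Cre cells 4 carriers passed the cutoff downward over the 2 days, Slc7a11, Slc38a1, Slc7a3 and Slc1a4, as did 10.0% of all expressed genes. Slc7a3 rests on 71 reads at day 0 and 24 at day 2. With length and GC trends removed 3 carriers passed downward, where 8.81% of all genes did.

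The aminoacyl-tRNA synthetases were split by whether they are held to be ATF4 targets. The 12 that are had a median log2 ratio of −0.71 at day 2, with all 12 below 0, and 1, Iars, at −1.37, past the cutoff. This 1 of 12 is near the share of all genes, and Iars dropped below the cutoff with TMM factors. The other 8 cytosolic synthetases had a median of −0.10, with 4 below and 4 above 0 and none past the cutoff. With TMM factors the medians were −0.53 and 0.09, and with length and GC trends removed they were −0.43 and −0.16, closer to each other. In the first set Gars was at −1.16, Cars at −0.48 and Sars, nearest to 0, at −0.19. In the other Dars and Rars were lowest at −0.79 and −0.76, and Farsa and Hars highest at 0.08 and 0.36. In the Ad-GFP induction the medians were 0.66 and 0.39, with none past the cutoff. Eprs and Wars were highest in the first set, at 1.23 and 1.18, and Aars and Sars lowest, at 0.32 and 0.23. Farsb and Rars were highest in the other, at 1.27 and 1.02, and Qars and Hars lowest, at 0.13 and 0.01. Of the first set, 7 had a promoter in the sequence table under the listed symbol, and 5 of these held the TGATGNAA core, Aars, Gars, Iars, Tars and Yars. Of the other set 5 had one and none held it. The lists themselves follow from what is known of ATF4 binding, so the split of the core between them is a description of the lists.

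**Figure D4:**
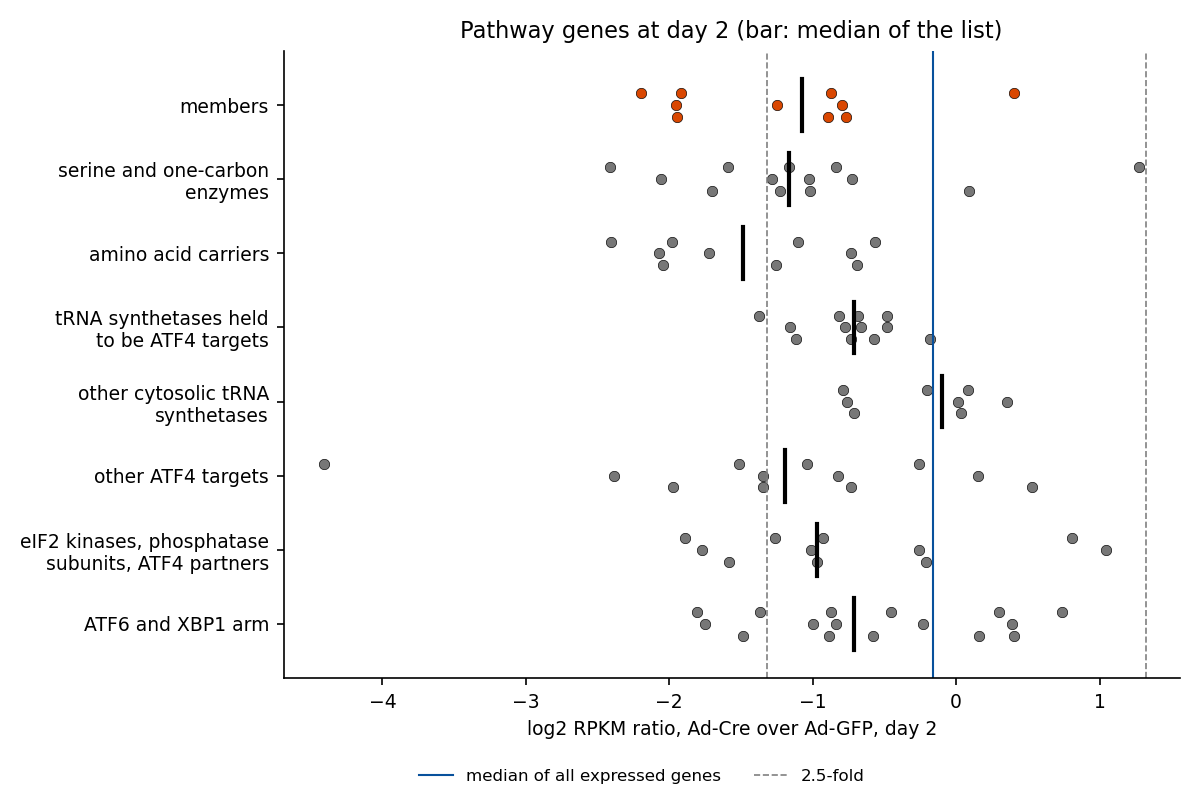
Log2 ratio of the RPKM of the day 2 libraries, Ad-Cre over Ad-GFP, for every expressed gene of the 10-gene set and of 7 pathway lists, with a bar at each median, a line at the median of all expressed genes (−0.16) and dashed lines at 2.5-fold. The medians run from −1.49 for amino acid carriers to −0.10 for the other cytosolic tRNA synthetases, and the point at −4.40 is Fgf21, from 27 reads and 1 read (interval −9.76 to −1.80).

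Among 12 other genes held to be ATF4 targets, 6 passed the cutoff upward in the Ad-GFP induction and 6 were past it lower with Ad-Cre at day 2, or 4 with TMM factors. The medians were 1.32 and −1.19 on the log2 scale. The lipoprotein receptor Vldlr had 2.92, 31.4, 3.26 and 6.02 RPKM, and the growth factor Vegfa 39.6, 207.7, 27.2 and 52.9. The secreted Gdf15 and Stc2 were low, at 6.50 and 2.47 RPKM with Ad-GFP and 2.56 and 0.87 with Ad-Cre at day 2. Lonp1, a mitochondrial protease, was 1.62 on the log2 scale in the Ad-GFP induction and −1.04 at day 2. In contrast Ddit4, an mTORC1 inhibitor that glucocorticoids also induce, had 87.5, 106.1, 35.5 and 117.7 RPKM, and passed the cutoff upward in the Ad-Cre induction. Sesn3, a relative of Sesn2, was lower in Ad-Cre cells at both days, at −1.63 and −1.35, and Cdkn1a was past the cutoff higher in Ad-Cre cells at day 0, at 1.38.

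The list of eIF2 kinases, phosphatase subunits and ATF4 partners held 11 genes. In the Ad-GFP induction 4 of them passed the cutoff upward and 1 downward, with a median log2 ratio of 0.38. At day 2 the median was −0.97, with 3 past the cutoff lower, or −0.40 with 2 lower and 1 higher where length and GC trends were removed. The 2 subunits that direct the phosphatase to eIF2, and so oppose its kinases, were Ppp1r15a with 10.1, 69.6, 15.8 and 23.3 RPKM and Ppp1r15b with 22.7, 73.9, 26.8 and 19.9. Both were past the cutoff lower in Ad-Cre cells at day 2, at −1.58 and −1.89 on the log2 scale, as was the stress protein Nupr1 at −1.77. Of the eIF2 kinases, Eif2ak2 was −1.39 in the Ad-GFP induction and Eif2ak4, which senses uncharged tRNA, −1.70 in the Ad-Cre induction. The C/EBP partners diverged. Cebpg, a partner of ATF4, had 9.14, 24.8, 7.94 and 10.4 RPKM, while Cebpb had 88.6, 367.7, 47.2 and 759.9 and was highest in the Ad-Cre day 2 library.

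The ATF6 and XBP1 arm of the unfolded protein response, which controls chaperones of the endoplasmic reticulum, was set beside the ATF4 genes. Of 16 genes, 2 passed the cutoff upward in the Ad-GFP induction, the co-chaperone Dnajb9 and the sensor Ern1, a count near the share of all genes, and the median was 0.10, or −0.08 with length and GC trends removed. At day 2, 4 were past it lower in Ad-Cre cells, Atf6 at −1.80, Ern1 at −1.75, Dnajb9 at −1.49 and Sel1l at −1.37, with a median of −0.71. With length and GC trends removed none of the 4 passed and the median was −0.03, whereas over the 10 genes it became −1.66 with 6 past the cutoff, where 5.52% of all expressed genes with a GC content were past it lower. In that setting the serine and one-carbon enzymes had a median of −0.86, against −1.16 without it. With TMM factors the median of the ATF6 and XBP1 arm was −0.53, with 2 past the cutoff lower. The highest at day 2 were the co-chaperone Sdf2l1 at 0.74 and the disulfide isomerase Pdia6 at 0.40. Calr and Pdia6 were lowest in the Ad-GFP induction, at −0.89 and −0.79. Xbp1 was past the cutoff downward in the Ad-Cre induction, at −1.44.

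The genes with profiles most like Asns over the 4 libraries, by Euclidean distance of centred log2 RPKM among 8626 genes with at least 100 reads in every library, were Atf6 at 0.09, Jade1 at 0.13, Focad at 0.14, Zyg11b at 0.15 and Fam210a at 0.16. Trib3, the nearest of the 10 genes, ranked 41 at 0.32. Those most like Ddit3 were Afg3l2 at 0.07, Tmem186 at 0.07, Utp25 at 0.09, Acad11 at 0.09 and Slc25a15 at 0.10. Sesn2, the nearest of the 10 genes to Ddit3, ranked 174 at 0.40. Such a profile rests on 4 values.

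Other measures moved with the day 2 comparison. All 8 expressed fat cell markers were also past the cutoff lower with Ad-Cre at day 2, and had a median log2 ratio of −2.09, while the 8 preadipocyte and mesenchymal markers went both ways, from −1.52 for Dlk1, past the cutoff, to 1.11 for Col1a1, with 5 above and 3 below 0. Acta1 was past the cutoff higher with Ad-Cre, 2.64-fold at day 0 and 9.35-fold at day 2, and Des had 5 reads in the Ad-GFP and 49 in the Ad-Cre library of day 2. In bulk RNA, fewer cells with a high level and less RNA in each cell cannot be told apart. The part of these marker differences in the values of the 10 genes was not tested.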

How the data were processed

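The 4 RNA-Seq libraries, 1 per condition, were assigned from the labels. The authors sequenced 50-base reads on an Illumina instrument, aligned them to NCBI37/mm9 and collected reads on RefSeq exons. They deposited a read count for each transcript, not normalized, and an RPKM; the treatment of reads with several matches, and of strand, is not given in the sources used here. The submitters' processing notes name bedtools 2.16 and SICER 1.1.

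The deposited RPKM gave all ratios, and the counts gave exact binomial 95% intervals (scipy 1.17.1). Intervals of differences of inductions used the 4 Poisson counts. Shares of genes past the cutoff are over expressed genes, 1 transcript per symbol; a gene whose ratio is undefined (0 to 0) is left out. Symbols came from a RefSeq table (GRCm38.p6, names only) and were found for 97.8% of 29082 transcripts. Gene coordinates and GC content came from GENCODE vM1, and promoters from RefSeq (GRCm38.p6), which held all 10 genes and were placed on NCBI37/mm9 by exact match. Windows of 50 bases, every 10 bases, were matched with blastn 2.17.0. TMM factors came from edgeR 4.0.16 in R 4.3.3, with no edgeR test. Tables were handled with pandas 2.3.3 and numpy 2.4.6 under Python 3.11.15, and plots drawn with matplotlib 3.10.9. Ratios and intervals were tested on simulated data.

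The 10 genes, the lists, the motif and the alternative settings were chosen with earlier results of these data known. Of each list, the genes named are the 2 highest and the 2 lowest at day 2 and in the Ad-GFP induction with at least 100 reads over the libraries, and those past the cutoff where 5 or fewer were. Fgf21, Psph, Tars and Yars were named after their values were seen. Pycr1 and Cd68 were not analysed here.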

Additional observations from a re-analysis of the deposited data

How the results depend on the processing

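No paired analysis was possible because each condition has 1 library, and for the same reason no replicate could be left out. None of the alternative settings turned the median of the 10 genes in the day 2 comparison or in the Ad-GFP induction. Settings that changed only the cutoff, a minimum of reads or the expression filter kept the ratios of the 10 genes. Those settings could not turn this median. The median of the Ad-GFP induction was 1.13 with TMM factors, 1.07 with the length trend removed and 1.11 with length and GC trends removed. Its count past the cutoff was 3 with TMM factors, 3 with the length trend removed, 3 where the nearer interval bound had to pass and 0 at 4-fold. The median of the Ad-Cre induction, near 0, was 0.093 with the sum of deposited counts as denominator, −0.29 with the length trend removed and −0.54 with length and GC trends removed, where 1 gene, Chac1, passed lower. The day 2 median was −0.94 with the sum of counts, −0.89 with TMM factors, −1.20 without the length trend and −1.66 without both trends, and 1 gene, Trib3, was over 4-fold lower. For the difference of inductions the median was −1.66 without the length trend and −1.79 without both, and 2 genes passed at 4-fold. The cause of these shifts was not tested, except that a 4-fold cutoff admits fewer genes by construction. The 4 genes past the cutoff at day 2 remained past it with other scaling, a pseudocount, mean RPKM of transcripts and trends removed. They also did where the nearer interval bound had to pass. At 4-fold only Trib3 remained. A 2-fold cutoff, a minimum of reads and the expression filters could not drop any of the 4. With 1 library per condition, depth sets only the counting intervals, and the spread between cultures is unknown.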
